A study of Mus musculus with 4 samples.

Results

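The cytosolic ribosomal protein genes encode the proteins that assemble with ribosomal RNA into the large (60S) and small (40S) ribosomal subunits. They were taken by symbol, as names beginning with Rpl or Rps followed by a digit together with Rpsa, Rplp0, Rplp1 and Rplp2. Kinases named Rps6k and symbols containing -ps were left out. The rule found 88 genes among the 24421 listed: 43 of the large subunit, 31 of the small subunit, 3 of the stalk and 11 paralogs or look-alikes. The 77 genes other than the 11 are called core members here. The 4 libraries came from poly(A) RNA of C57BL/6 mice. Animals 139 and 140 were Usp25+/+, and animals 826 and 850 were knockouts, Usp25-/-, for this gene of a ubiquitin-removing enzyme. Which exons the knockout lacks is unknown here, and each genotype rests on 2 animals. The labels describe distal colon of females aged 8 weeks that had drunk 2.5% dextran sulfate sodium, which injures the colon epithelium, for 5 days and plain water for 2 more days. All 4 libraries share this treatment and no untreated animal was analysed here.

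Each ribosome carries a single copy of most of its proteins, and cells make them in matched amounts. Their mRNAs are short, abundant and known for a terminal oligopyrimidine (TOP) tract, a C followed by a run of pyrimidines at the very start of the transcript. Through this tract, mTORC1 and the RNA-binding protein Larp1 set how fast the mRNAs are translated, so that mRNA levels do not by themselves give the rate of ribosome production. Ribosomal protein genes have also left many processed pseudogenes in the mouse genome, some of them nearly identical to the parent mRNA.

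Values are FPKM, that is fragments per kilobase of transcript, scaled for the number of mapped fragments, and the sequencing depth behind them is unknown. Summed FPKM lay between 526652 and 565645 per library. Usp25 itself had 38.5 FPKM in 139 and 16.6 FPKM in 140, against 2.65 FPKM in 826 and 1.71 FPKM in 850. The transcripts did not match the labelled colon and sex. The goblet cell mucin Muc2 did not exceed 0.193 FPKM, and the lung surfactant gene Sftpc stood between 339 and 2596 FPKM. Under 1 FPKM in every library were 3 of 5 absorptive colonocyte markers and 4 of 5 goblet cell markers. The exceptions were Car4 at 193 to 399 FPKM, Krt20 at 3.11 to 52.4 FPKM and Spdef at 0 to 2.14 FPKM. The Y-linked gene Ddx3y stood between 12.7 and 30.3 FPKM, and the female-specific Xist was at most 0.11 FPKM. The genotype labels are used below without taking the values as those of colon. In tissue RNA, fewer cells of a type and less RNA per cell cannot be told apart.

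Runs of pyrimidines were present near many of the annotated starts. RefSeq promoters (GRCm38.p6, a later build than that of the files) were found for 57 of the 77 core genes, as 67 start sites. A run of at least 8 C or T letters on the coding strand, within 25 bases on either side of the start, was present at 31 of these 67 (46.3%), against 19.7% of 32851 promoters of all genes and 22.7% of 75 promoters of mitochondrial ribosomal protein genes. The other strand was not searched, and a run is a match of letters, not a mapped transcript start. The following 5 windows of 30 bases show the run in a gene of central function (Rps6), in a stalk protein (Rplp2) and in 3 genes whose levels are described below. Capitals mark the run. With the annotated first base as 1 and the base before it as -1, the runs began at -1 in Rps6, -5 in Rplp2, -2 in Rps27, -18 in Rpl31 and -3 in Rpl28. That of Rpl31 ended before the annotated start, and those of Rplp2 and Rpl28 began with T, so they do not all have the form of a TOP tract at that start.
Rps6, chr4:86857349-86857378, minus strand: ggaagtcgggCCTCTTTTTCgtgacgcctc
Rplp2, chr7:141447636-141447665, plus strand: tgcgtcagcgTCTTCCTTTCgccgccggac
Rps27, chr3:90213632-90213661, minus strand: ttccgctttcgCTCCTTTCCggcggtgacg
Rpl31, chr1:39367824-39367853, plus strand: ctcgccacaCCTCTTCCTCCTCgcctcccc
Rpl28, chr7:4792952-4792981, plus strand: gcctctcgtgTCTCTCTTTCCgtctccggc

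Some members share almost their whole coding sequence with another listed gene. The coding sequence of Rps27, a zinc finger protein of the small subunit, has 255 bases. It was identical to that of Rps27rt, base for base. The shared sequence is shown because the letters of a read that lies within it do not tell the 2 loci apart.
Rps27 and Rps27rt: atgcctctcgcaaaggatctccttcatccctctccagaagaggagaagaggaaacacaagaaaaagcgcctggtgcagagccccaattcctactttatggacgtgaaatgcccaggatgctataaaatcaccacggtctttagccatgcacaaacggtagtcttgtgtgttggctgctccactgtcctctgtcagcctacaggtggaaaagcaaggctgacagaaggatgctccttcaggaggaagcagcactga
On mm9 (NCBIM37, GENCODE vM1), Rps27 lies on chromosome 3 from 90016593 to 90017573 on the minus strand and has 4 exons. Rps27rt lies on chromosome 9 from 114891515 to 114891858 on the minus strand as a single exon. Rpl26, a large subunit protein at the exit of the peptide tunnel, is on chromosome 11 from 68715085 to 68720491. Its copy Gm15772 is annotated as a pseudogene on chromosome 5 from 3236389 to 3236907, and the coding sequences differ at 2 of 438 positions, C177T and T288C (Rpl26 first, counted from the A of the start codon). The stretch from base 162 to base 303 holds both differences, in capitals.
Rpl26: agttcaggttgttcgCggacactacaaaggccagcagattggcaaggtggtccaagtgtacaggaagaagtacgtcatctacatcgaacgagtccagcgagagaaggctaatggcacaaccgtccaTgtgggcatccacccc
Gm15772: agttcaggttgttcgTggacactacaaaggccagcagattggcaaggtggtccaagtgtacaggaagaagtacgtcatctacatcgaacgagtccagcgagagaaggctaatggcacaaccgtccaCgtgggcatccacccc
Rpl34 on chromosome 3 and Rpl34-ps1, annotated as a pseudogene on chromosome 6, differ at 2 of 354 positions, T132C and C318G. Rpl37 on chromosome 15 and Rpl37rt on chromosome 5 differ at 1 of 294 positions, G249A, within the following stretch.
Rpl37: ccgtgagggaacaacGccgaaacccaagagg
Rpl37rt: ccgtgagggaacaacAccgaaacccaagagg

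The 4 libraries divided these sequences between their copies in different ways. In the order 139, 140, 826 and 850, Rps27 had 2185, 36.2, 2326 and 1902 FPKM, and Rps27rt at 128, 1709, 184 and 92.1 FPKM. Rps27rt held 97.9% of the pair in animal 140 and between 4.62% and 7.32% in the other 3 libraries. The sum of the pair was 2314, 1745, 2510 and 1994 FPKM, so that the libraries of the genotypes overlapped. Rpl26 was listed at 9.88, 173, 19.8 and 126 FPKM, low in 1 library of each genotype and higher in the other, while Gm15772 stood at 1176, 1290, 2111 and 1428 FPKM. Their sum was 1186, 1463, 2130 and 1554 FPKM. Rpl34 was listed at 41.9, 41.9, 193 and 40.4 FPKM, high in animal 826, and Rpl34-ps1 at 554, 874, 1004 and 872 FPKM. In the Rpl37 pair, Rpl37rt held between 27.2% and 31.0% in every library. The single-gene values of Rps27, Rps27rt, Rpl26 and Rpl34 are therefore uncertain, and the sums, added after the values were seen, are given beside them.

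**Figure D1:**
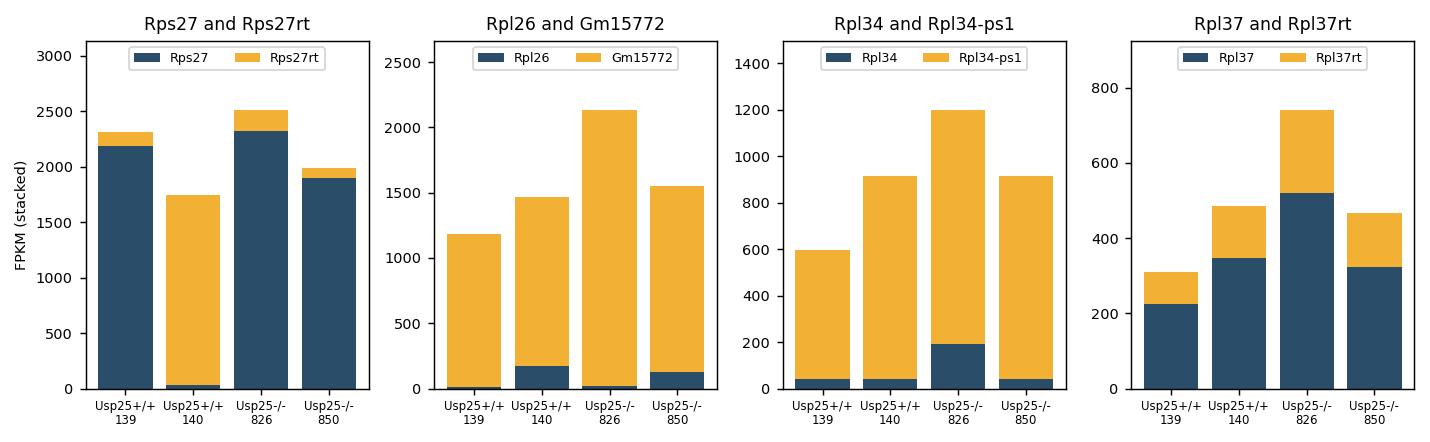
FPKM of 4 ribosomal protein genes (dark) stacked with their near-identical listed copies (yellow) in each library, on a linear axis from 0. Rps27rt holds 97.9% of its pair in Usp25+/+ 140 and at most 7.32% in the other 3 libraries, while the summed height of this pair lies between 1745 and 2510 FPKM.

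The family was among the most abundant transcripts of each library, and its level was lowest in animal 139. The 88 genes held 6.59% of the summed FPKM in 139, 9.84% in 140, 12.0% in 826 and 10.6% in 850. The means were 8.21% ± 2.30 in Usp25+/+ and 11.3% ± 0.963 in Usp25-/- (SD, n = 2 each), a difference of 3.07 percentage points. The libraries did not overlap, and the exact two-sided permutation test gave p = 0.33, the smallest that 2 against 2 libraries allow. Without animal 139 the difference was 1.44 points. The median core gene stood at 395, 658, 803 and 694 FPKM in 139, 140, 826 and 850. Of the 100 most abundant genes, 15, 32, 37 and 41 were members in the same order. The medians of the 12011 tested genes, which average 1 FPKM or more, were nearly level between the libraries, at 7.84, 7.80, 7.91 and 7.99 FPKM.

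**Figure D2:**
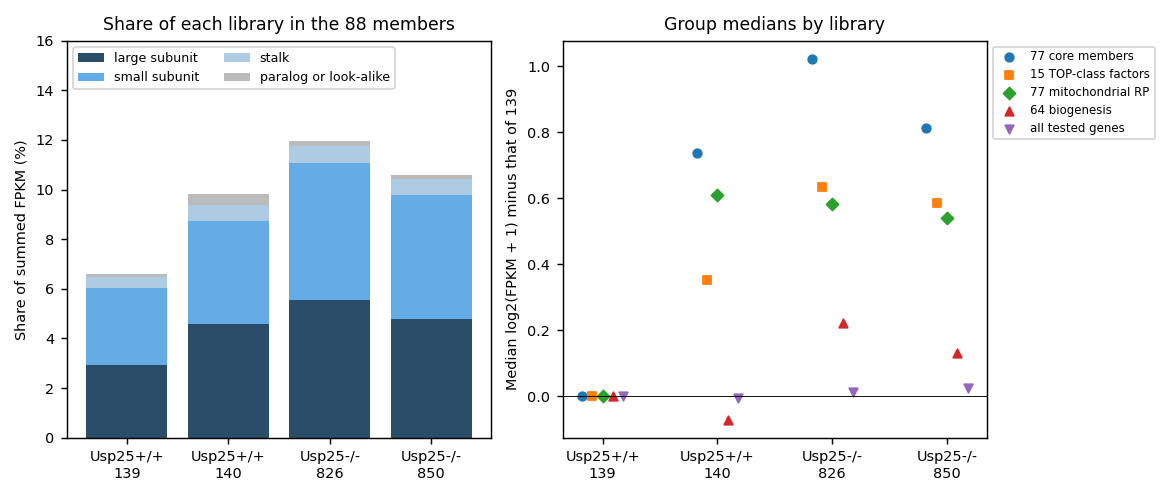
Left, share of summed FPKM in large subunit, small subunit, stalk and paralog genes in each library. Right, median log2(FPKM + 1) of gene groups minus the value of the same group in Usp25+/+ 139. The share is lowest in 139 (6.59%) and highest in 826 (12.0%), while the median of all tested genes moves by less than 0.1 log2 units.

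Between the genotypes, most members had a higher mean in Usp25-/-, and none passed the test. Limma on log2(FPKM + 1) was fitted to the 12011 genes, and 87 of the 88 members were among them. Of the 87, 0 passed a Benjamini-Hochberg adjusted p of 0.05 (0.00% of all tested genes did) and 0 had an unadjusted p under 0.05 (3.12% of all tested genes, and 2.11% with a higher level in Usp25-/-). The smallest limma adjusted p of a member was 0.960. A positive log2 fold change, Usp25-/- minus Usp25+/+, was found in 83 of 87 members (53.5% of all tested genes). The median log2 fold change was 0.50, against 0.03 over all tested genes. In 49 of the 87 (56.3%) both Usp25-/- libraries stood above both Usp25+/+ libraries, as in 19.0% of all tested genes, and in 0 they stood below (14.7%). These members vary together within a library, so that their number adds no independent animals.

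The order of the libraries was largely shared by the members. Animal 139 was lowest in 77 of 87 members (39.4% of all tested genes), 826 was highest in 73 (25.4%), and both held in 66 (14.0%). The difference within Usp25+/+ was as large as that between the genotypes: the median member was 0.62 log2 units higher in 140 than in 139, 0.28 higher in 826 than in 850, and 0.04 higher in 850 than in 140. Animal 850 was above 140 in 51 of the 87. Without animal 139 the median log2 fold change of the members was 0.18, with 65 of 87 positive (5908 of the 12011 tested genes). It was 0.80 without 140, 0.35 without 826 and 0.62 without 850. Among the 77 core members, 58 had a positive log2 fold change whichever library was left out. These fits share libraries and the members vary together, so the count does not measure agreement between animals. The matching share over all tested genes was not computed.

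Neutrophil transcripts were highest in animal 139, where the family level was lowest. All 10 neutrophil markers listed (S100a8, S100a9, Mmp8, Mmp9, Csf3r, Cxcr2, Retnlg, Ngp, Ltf and Camp) were highest in 139, with a summed level of 41888 FPKM there, 763 FPKM in 140, and 2101 and 1239 FPKM in the Usp25-/- libraries. Camp was listed at 0 in 140. From 140 to 850 to 826, however, the neutrophil sum and the family share both rose. Summed T cell, B and plasma cell and ciliated cell markers were also lowest in 139, and Cd2, Jchain and Tppp3 made up most of these sums. Those of macrophages, endothelium and fibroblasts were lowest in 826, though not every member was. Dcn was the largest part of the fibroblast sum, while Col1a1, Col1a2 and Col3a1 were lowest in 139. Mrc1 of the macrophage list and Cldn5 of the endothelial list were also lowest in 139, and Marco was lowest in 850. Sums of smooth muscle markers (12.9 to 20.0 FPKM) and erythroid markers (0.40 to 13.9 FPKM) were lowest in 139 too. The 6 alveolar type 2 cell markers summed to 1478 FPKM in 139 and to between 3815 and 4947 FPKM in the other 3 libraries, with none at 0. Sftpc and Sftpb carried this sum, and the other 4 were nearly level between 139 and 826, as with Sftpa1 at 75.5 and 74.8 FPKM and Sftpd at 172 and 183 FPKM. The 4 markers of dividing cells summed to 24.3, 18.6, 24.7 and 24.4 FPKM in 139, 140, 826 and 850. Single markers within these sums went opposite ways. In the same order, Mki67 had 11.2, 3.57, 4.50 and 4.89 FPKM, highest in 139. Cdk1 had 3.83, 6.58, 9.84 and 6.65 FPKM, lowest in 139. The ribosomal RNA precursor Rn45s stood at 2820, 6643, 7362 and 10680 FPKM in 139, 140, 826 and 850, lowest in 139. Both Usp25-/- libraries were above both others, as in 19.0% of all tested genes. How far the selection of poly(A) RNA shaped these values is unknown here. Animal 139 also had 20556 genes above 0, against 15603 to 17242 in the other libraries. The part of these cells, of the ribosomal RNA and of the number of detected genes in the family level was not tested.

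**Figure D3:**
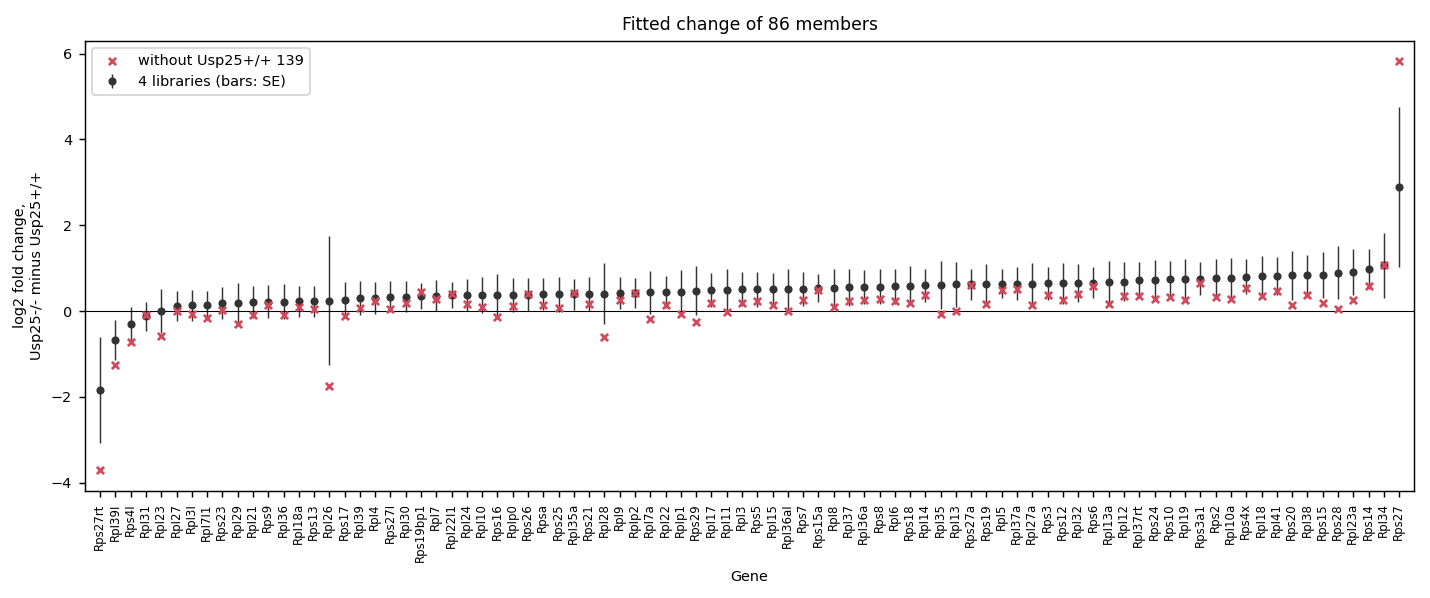
Limma log2 fold change (Usp25-/- minus Usp25+/+) of 86 of the tested members with all 4 libraries (black points, bars are SE) and without Usp25+/+ 139 (red crosses). With 4 libraries 82 points lie above 0, and without 139 there are 65, while Rps27, Rps27rt and Rpl26 lie farther from 0.

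The small subunit genes had the highest median change of the classes over all 4 libraries. Without animal 140 their median was 0.85, against 0.86 for the large subunit, and the difference between the classes was not tested. All 31 small subunit genes had a positive log2 fold change (53.5% of all tested genes), with a median of 0.59. In 20 of them both Usp25-/- libraries were higher (19.0% of all tested genes). Rps14, a protein of the 40S platform, had 776 FPKM in 139 and 1335 FPKM in 140, against 2331 FPKM in 826 and 1746 FPKM in 850. Pairs of values below keep this order. Both Usp25-/- libraries were above both others, and the log2 fold change of 0.99 (SE 0.47) was the largest of a core member without a near-identical listed copy. Rps15, next to the decoding site, stood at 346 and 851 against 1093 and 866 FPKM, so that 140 and 850 were nearly level (log2 fold change 0.84, SE 0.55, or 0.19 without animal 139). Rps28, one of the shortest members, stood at 107 and 349 against 346 and 376 FPKM, low in 139 alone (0.90, SE 0.62, or 0.05 without 139). Rps27 had the largest fitted value of all members, 2.88 (SE 1.86), which was -0.06 without animal 140 and 0.15 (SE 0.42) for the sum with Rps27rt.

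Other small subunit genes of known roles had smaller differences. Rps6, the S6 kinase substrate of the 40S subunit on mm9 chromosome 4 from 86500564 to 86503316, had 377 and 419 against 704 and 562 FPKM. Its means were 398 ± 29.6 and 633 ± 100 FPKM (SD, n = 2 each), without overlap, and its log2 fold change of 0.66 (SE 0.36) was 0.59 without animal 139. Rps27a, which encodes a ubiquitin fused to a ribosomal protein, had 448 and 464 against 815 and 605 FPKM, again without overlap (0.62, SE 0.37). Rps19, mutated in Diamond-Blackfan anaemia, stood at 315 and 595 against 754 and 598 FPKM, so that 140 and 850 were nearly level. Rpsa, also known as the laminin receptor, had 342 and 487 against 551 and 518 FPKM (0.39, SE 0.37). Rps18, of the 40S head, stood at 708 and 1248 against 1552 and 1300 FPKM (0.59, SE 0.46). Rps9, among the 6 most abundant members, stood at 1070 and 1200 against 1458 and 1189 FPKM (0.22, SE 0.39).

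Among the 43 large subunit genes 42 had a positive log2 fold change, with a median of 0.50, and in 24 both Usp25-/- libraries were higher (again against 19.0% of all tested genes). Rpl41, the shortest ribosomal protein and one of the most abundant members, stood at 809 and 1297 against 1984 and 1645 FPKM, without overlap (0.82, SE 0.44). Rpl23a, which docks the signal recognition particle at the tunnel exit, had 243 and 606 against 749 and 692 FPKM (0.91, SE 0.53, or 0.25 without animal 139). Rpl34 had the largest fitted value of the large subunit at 1.06 (SE 0.75). It was -0.05 without animal 826, and the sum with Rpl34-ps1 had a log2 fold change of 0.50 (SE 0.42). Rpl10, needed for subunit joining, stood at 784 and 1161 against 1407 and 1085 FPKM, so that 850 lay below 140.

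Rpl5 and Rpl11 bind the 5S ribosomal RNA, and the free 5S particle inhibits the p53 ubiquitin ligase Mdm2. Rpl5, on mm9 chromosome 5 from 108329521 to 108338024, had 197 and 243 against 367 and 315 FPKM, without overlap (0.63, SE 0.34). Rpl11 stood at 439 and 893 against 974 and 802 FPKM, with animal 850 below 140 (0.50, SE 0.48, or -0.01 without 139). The 2 partners thus differed in whether their libraries overlapped, and that difference was not tested. Of 11 genes of the p53 checkpoint, 7 had a log2 fold change above 0 and 4 below it. The median was 0.09, and 0 passed the test. Phlda3, a p53 target, stood at 12.1 and 48.4 against 26.3 and 46.4 FPKM, and Sesn2, a stress-induced mTORC1 inhibitor, at 10.2 and 10.5 against 6.55 and 7.96 FPKM.

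The lowest log2 fold changes of the large subunit were those of Rpl31 and Rpl23. Rpl31 was the only core member below 0, at -0.13 (SE 0.34), which was 0.03 without animal 850. It was listed at 343 and 330 against 344 and 276 FPKM, and did not share the low level of 139. Rpl23, which like Rpl5 and Rpl11 is known to bind Mdm2, stood at 393 and 886 against 658 and 536 FPKM, highest in 140. Its log2 fold change was 0.01 (SE 0.51), or -0.58 without 139 and 0.59 without 140. Rpl26 had 0.24 (SE 1.51), which ran from -1.76 without animal 139 to 2.24 without 140, and 0.47 (SE 0.41) for the sum with Gm15772.

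The stalk proteins recruit the elongation factors to the ribosome. Rplp0, the anchor of the stalk, was listed at 650 and 938 against 1045 and 991 FPKM, without overlap (log2 fold change 0.38, SE 0.40). Rplp1, with the highest mean of all members, stood at 966 and 1984 against 2018 and 1753 FPKM. Animal 850 lay below 140 in Rplp1, and its change of 0.44 (SE 0.51) was -0.08 without animal 139. Rplp2, the dimer partner of Rplp1, stood at 596 and 605 against 837 and 780 FPKM. Its means were 601 ± 6.70 and 809 ± 39.9 FPKM (SD, n = 2 each), and its change of 0.43 (SE 0.35) stayed between 0.38 and 0.48 whichever library was left out. Rplp1 was thus 2.05-fold higher in 140 than in 139, while Rplp2 was 1.02-fold higher. Rplp2 also has a near-identical listed copy, Rplp2-ps1, at 99.4% identity, which stood between 41.7 and 55.1 FPKM. The sum of Rplp2 and Rplp2-ps1 had a log2 fold change of 0.42 (SE 0.35).

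**Figure D4:**
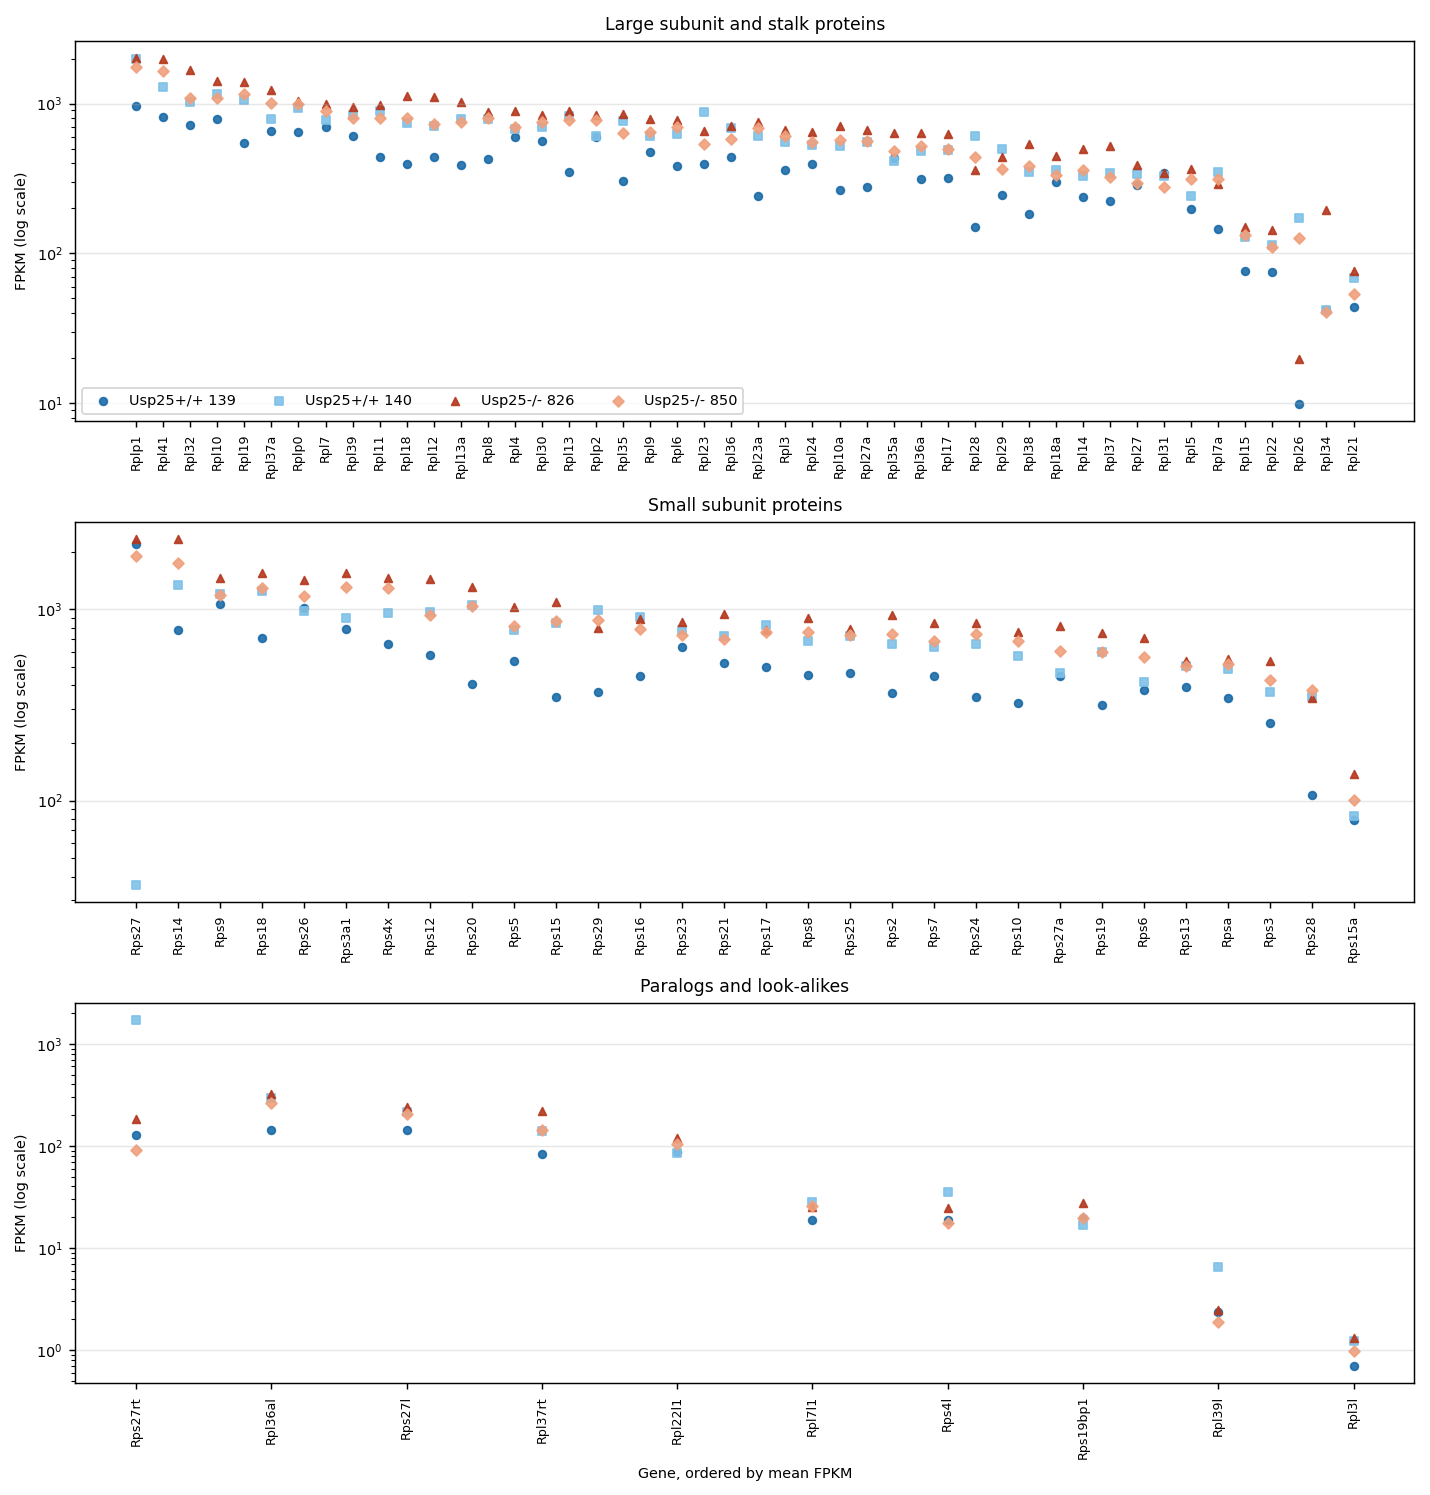
FPKM on a log axis of 76 core members and the 10 tested paralogs in each library, ordered by mean within each panel. Circles of Usp25+/+ 139 lie lowest for most genes. Rps27, Rps27rt and Rpl34 stand apart through a single library each, and Rpl26 is low in 1 library of each genotype.

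The proportions between members were largely kept from library to library. Across the 77 core members, Pearson's r of log2(FPKM + 1) lay between 0.638 (139 and 140) and 0.938 (139 and 826). Without Rps27, Rpl26 and Rpl34, left out after their values were seen, it lay between 0.883 and 0.979 over 74 genes. These correlations are across genes of the same libraries, and describe them only. Taken relative to the median member of the same library, 43 of 77 core members ranged by less than 0.5 log2 units over the 4 libraries, and 6 ranged by at least 1. Besides Rps27, Rpl26 and Rpl34, the 6 were Rpl28, Rps28 and Rpl31. The longest annotated coding length of each gene had a Spearman's rho of 0.03 with the log2 fold change over the 75 core members with an annotated coding sequence. That length was 3153 bases in Rpl24 and 1272 bases in Rpl13a, and need not be that of the usual protein.

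Relative to the family, Rpl28 and Rps28 were lowest and Rpl31 highest in animal 139. Rpl28, a large subunit protein with no bacterial counterpart, was listed at 150, 612, 363 and 443 FPKM in 139, 140, 826 and 850. It was -1.32 log2 units from the median member in 139 and level with it in 140, and was 4.07-fold higher in 140 than in 139. Rps28 was likewise lower relative to the family in 139 (-1.80) than in the other 3 libraries (-1.13 to -0.79). Rpl31 went the other way, at -0.13 in 139 and between -1.24 and -0.89 elsewhere. Rps26 and Rpl35a, at 1011 and 432 FPKM in 139 and 981 and 414 FPKM in 140, also did not share the difference between these animals. Rpl28, Rps26 and Rpl35a were chosen after their values were seen.

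**Figure D5:**
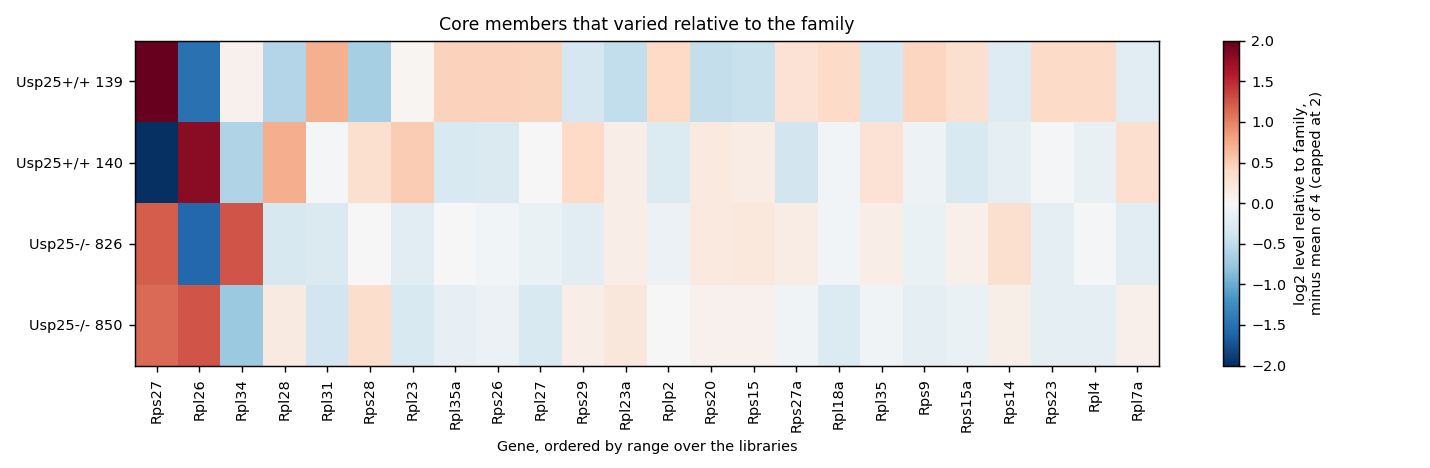
Level of 24 core members relative to the median member of the same library, in log2 units and centred on the mean of the 4 libraries, with colours capped at 2. Columns run from the member with the widest range (Rps27) to narrower ones, and in Usp25+/+ 139 Rpl28 and Rps28 are at their lowest and Rpl31 at its highest.

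The 6 core members with the lowest means were Rpl21, Rpl34, Rpl26, Rps15a, Rpl22 and Rpl15, each under 130 FPKM on average. Rpl21 was listed at 44.0, 68.3, 76.1 and 53.5 FPKM and Rps15a at 79.3, 83.0, 138 and 100.2 FPKM in 139, 140, 826 and 850. Of the core members, 70 stood at 100 FPKM or more in every library. Other pseudogene symbols of the family were listed too, and Rpl14-ps1, at 98.4% identity to Rpl14, stood between 34.0 and 89.5 FPKM. Rps15a-ps6 stood between 6.45 and 17.2 FPKM.

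The paralogs differed widely in level and had no common direction. Of the 10 tested, 7 had a log2 fold change above 0 and 3 below it, and the median was 0.23. Rpl22l1, which can replace Rpl22 in the large subunit, stood at 87.0 and 84.7 against 118 and 105 FPKM, without overlap (0.37, SE 0.30). Its parent Rpl22 was at a similar level, 75.1 and 113 against 143 and 111 FPKM, so that Rpl22l1 held between 42.7% and 53.7% of the pair. Rpl36al was listed at 143 and 292 against 324 and 262 FPKM and held between 31.4% and 37.7% of its pair with Rpl36a. Rps27l, a p53-inducible relative of Rps27, had 144 and 213 against 239 and 203 FPKM (0.33, SE 0.36). Rpl37rt had 84.2 and 140 against 220 and 145 FPKM (0.71, SE 0.42), and the sum with Rpl37 0.60 (SE 0.44).

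Except for Rps27rt, which held most of its pair in animal 140, the remaining paralogs stood far below their parents or, for the look-alike, the gene it is named after. Rpl39l, known from testis, was listed at 2.37 and 6.53 against 2.48 and 1.86 FPKM, highest in 140 (-0.67, SE 0.47), while Rpl39 stood between 604 and 956 FPKM. Rpl3l, known from heart and skeletal muscle, stood between 0.70 and 1.30 FPKM, and Rpl3 between 359 and 664 FPKM. Rpl10l, also known from testis, was listed at 0.53, 0, 0 and 0.03 FPKM in 139, 140, 826 and 850 and was not tested. Rps4l stood at 19.0 and 35.1 against 24.7 and 17.4 FPKM (-0.31, SE 0.41), and its parent Rps4x at 660 and 952 against 1463 and 1297 FPKM (0.80, SE 0.41). Rpl7l1, a relative of Rpl7 that works in ribosome assembly, stood between 18.8 and 28.4 FPKM (0.13, SE 0.32), and Rpl7 between 698 and 995 FPKM. Rps19bp1, which is matched by its name but encodes a binding partner of Rps19, stood between 16.8 and 27.7 FPKM (0.35, SE 0.31). Rps27rt had the lowest fitted value of the members, -1.84 (SE 1.24), which was 0.02 without animal 140.

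Fau and Gnb2l1, ribosomal proteins that the rule does not match, lay near the family. Fau, a ubiquitin-like protein fused to a small subunit protein, stood at 659 and 769 against 1324 and 864 FPKM (0.59, SE 0.41). Gnb2l1, which encodes the scaffold protein Rack1, stood at 487 and 855 against 943 and 823 FPKM (0.45, SE 0.44). Both were lowest in 139 and highest in 826. Of 15 translation factors and other genes of the TOP class, 15 had a positive log2 fold change, with a median of 0.44 (0.30 without animal 139), and in 10 both Usp25-/- libraries were higher (19.0% of all tested genes). Eef1g, a subunit of the factor that reloads the elongation factor eEF1A, stood at 128 and 162 against 263 and 261 FPKM (0.86, SE 0.33), and Eef1d, of the same complex, at 30.8 and 58.0 against 69.9 and 75.8 FPKM (0.77, SE 0.40).

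The genes that build ribosomes and the initiation factors had smaller medians than the ribosomal proteins over all 4 libraries. Without animal 139 the order was mixed. Biogenesis genes then had 0.20, genes of RNA polymerase I and its factors 0.15, initiation factors 0.25 and the ribosomal proteins 0.18. The differences between these lists were not tested. Of 64 ribosome biogenesis genes 50 had a positive log2 fold change, with a median of 0.24, and the median difference of 140 minus 139 was -0.01, against 0.62 for the ribosomal proteins. Nob1, which trims the 18S ribosomal RNA, stood at 5.52 and 8.26 against 12.4 and 11.8 FPKM (0.75, SE 0.31), and the methyltransferase Fbl at 20.2 and 40.5 against 45.1 and 49.7 FPKM. Of 15 genes of RNA polymerase I and its factors 10 had a positive value, with a median of 0.20, led by Polr1d at 0.56 (SE 0.32) and Taf1d at 0.45 (SE 0.34). Of 32 initiation factors 26 were positive, with a median of 0.22, and Eif2b3 and Eif3m had 0.91 (SE 0.36) and 0.66 (SE 0.30). Of 17 tested regulators of mTORC1 and S6 kinases 6 were positive and 11 negative, with a median of -0.05. Rps6ka2, a ribosomal S6 kinase, stood at 17.2 and 4.29 against 2.01 and 2.39 FPKM (-1.62, SE 0.62), and Tsc1, an inhibitor of mTORC1, at 4.72 and 2.72 against 1.72 and 1.31 FPKM (-0.88, SE 0.36). Among these lists 0 genes passed the limma test, and 1 of 15 TOP-class genes and 1 of 17 regulators had an unadjusted p under 0.05, as did 3.12% of all tested genes.

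Mitochondrial ribosomal proteins, which form a separate ribosome, shared the low level of animal 139 but not the further order. Of 77 tested, 71 were lowest in 139, and 67 had a positive log2 fold change, with a median of 0.29. Without animal 139 the median was 0.03 with 40 of 77 positive, while the cytosolic family had 0.18 with 65 of 87 positive. The median difference of 826 minus 850 was 0.07 in the mitochondrial and 0.28 in the cytosolic genes. Mrps25 stood at 2.38 and 5.98 against 8.21 and 6.58 FPKM and Mrps30 at 7.42 and 14.6 against 18.4 and 17.9 FPKM. Of 5 reference genes for level (Actb, Gapdh, B2m, Ppia and Tubb5), 4 were also higher in 140 than in 139. The median difference over the 5 was 0.82 log2 units, against 0.62 for the cytosolic members, and Actb went the other way. The median log2 fold change was -0.29 with 2 of 5 positive, and 2 were lowest in 139. Gapdh stood at 39.1 and 69.6 against 37.0 and 29.6 FPKM (-0.64, SE 0.39). Tubb5 had 62.8 and 113 against 108 and 115 FPKM (0.40, SE 0.39). The differences between the lists were not tested.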

How the data were processed

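The values deposited by the authors, 1 per gene symbol and library, are taken as FPKM because Cufflinks appears in the submitters' processing notes, beside cutadapt, TopHat2 2.1.1 and mm9. No header states the unit. The annotation, the scaling and the handling of reads that map to several places are unknown here. Per the labels, the libraries carried no strand information, so a gene and its antisense partner share reads. Groups came from the titles. A few genes counted in the totals are not reported individually here.

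All 12011 genes averaging 1 FPKM or more entered limma 3.58.1 (R 4.3.3, eBayes with trend, two-sided) on log2(FPKM + 1), a scale on which changes of low genes appear smaller. Benjamini-Hochberg adjustment ran over all of them, with a threshold of 0.05, and the script was tested on simulated data. Near-identical copies were found with blastn of GENCODE vM1 coding sequences (84 of 88 members) against spliced genes, at 90% identity over 80% of the length. The longest coding sequence of each gene was used, so that a copy matching a smaller part of it, as could occur for Rpl24, was not found. The genes named were the 6 members with the highest mean, the 6 with the largest log2 fold change in each direction, tested paralogs with their parents, members ranging by at least 3 log2 units or listed at 0 in some libraries, 11 of known roles, and 2 genes of each list. Rpl21, Rps15a, Rpl22 and Rpl15, the lowest core members, and those named for their relative level were chosen after their values were seen. Members and lists were chosen with earlier results of these data known. The alternatives tried were other pseudocounts, filters, scalings and variance settings, leaving out each library, and summing the copies.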

Additional observations from a re-analysis of the deposited data

How the results depend on the processing

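The limma fit had 0 members past the adjusted threshold under every alternative run. Leaving out each library in turn moved the median log2 fold change of the members between 0.18 and 0.80, the number positive between 65 and 84, and the share difference between 1.44 and 4.69 percentage points. In these fits the lone library of a genotype takes its spread from the other genotype. Scaling each library to the family median set the median to -0.045 and the number positive to 37 of 87 by construction, and moved the median of all tested genes to -0.43. Under that scaling 19 named members turned negative: Rpl10 -0.18, Rpl11 -0.051, Rpl22 -0.10, Rpl22l1 -0.17, Rpl23 -0.54, Rpl26 -0.27, Rpl3 -0.045, Rpl36al -0.036, Rpl39 -0.25, Rpl3l -0.13, Rpl7 -0.19, Rpl7l1 -0.39, Rplp0 -0.17, Rplp1 -0.11, Rplp2 -0.12, Rps19bp1 -0.18, Rps27l -0.21, Rps9 -0.33 and Rpsa -0.16. Under median-of-ratios scaling Rpl23 was -0.043. Leaving out 1 library turned the sign of 12 named members, and the cause was not tested. Their ranges were -0.014 to 1.01 for Rpl11, -0.58 to 0.59 for Rpl23, -1.76 to 2.24 for Rpl26, -0.29 to 0.033 for Rpl31, -0.053 to 2.18 for Rpl34, -0.0015 to 1.02 for Rpl36al, -0.065 to 0.33 for Rpl3l, -0.15 to 0.42 for Rpl7l1, -0.077 to 0.96 for Rplp1, -0.055 to 5.82 for Rps27, -3.71 to 0.018 for Rps27rt and -0.73 to 0.12 for Rps4l. Under the other alternatives the median stayed between 0.45 and 0.51 with 81 to 83 positive. Summing near-identical copies was added after seeing the data. A fit without mitochondrial transcripts was not run, as 0 symbols begin with mt-. No paired analysis was possible because the genotypes share no animal number. The depth of the libraries is unknown.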
